A study of Mus musculus with 2 samples.

Results

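Granzymes are serine proteases that cytotoxic T cells and natural killer (NK) cells keep in granules together with perforin, the protein that opens the way for them into a target cell. The 9 granzyme genes Gzma, Gzmk, Gzmm, Gzmb, Gzmc, Gzmd, Gzme, Gzmf and Gzmg and the perforin gene Prf1 were followed here, found by their symbols in a table of 35602 genes, and all 10 were present. They were compared between 2 libraries of messenger RNA from mouse breast tumour tissue. The tumours came from mice injected intraperitoneally with a PD-1 inhibitor, an agent that blocks an inhibitory receptor of T cells, either alone or together with acupuncture, so every sample had the PD-1 inhibitor and no untreated group was analysed here. There was 1 library per group, and the labels do not give the strain, the age, the tumour model or how many animals a library holds. Without replicates no difference could be tested, and every interval below covers counting error only.

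In the mouse, the granzymes lie in 3 places. Gzma and Gzmk are neighbours, and their enzymes cut after basic residues. Granzyme M sits elsewhere and is known from NK cells. Gzmb, whose enzyme cuts after aspartate and can start caspase-dependent death, stands at 1 end of a row that goes on with Gzmc, Gzmf, Gzmn, Gzmg, Gzmd and Gzme and then with cathepsin G and the mast cell proteases. Gzmc to Gzmg are copies found in rodents, known from T cells and NK cells kept under long stimulation with interleukin 2 and from NK cells of the pregnant uterus. In bulk tissue, fewer cells of a type and less RNA per cell cannot be told apart.

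The stretches in front of the genes show how alike the Gzmc to Gzmg copies are and how far they stand from Gzmb, Gzma and Gzmk. They are 90-base pieces of the strand of the gene, taken from RefSeq on GRCm38.p6, an older assembly than the GRCm39 named for the counts. All motifs were searched on both strands. Capitals mark matches to TGTGGT or its reverse complement ACCACA (the core letters of RUNX binding) and to TGANTCA (the AP-1 letters). They also mark the 8 bases where 3 of the copies hold TGACGTCA (the cyclic AMP response letters).
Gzmc (chr14:56234682-56234771, minus strand): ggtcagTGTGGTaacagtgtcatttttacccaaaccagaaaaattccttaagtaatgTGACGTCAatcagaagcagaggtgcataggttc
Gzmd (chr14:56132622-56132711, minus strand): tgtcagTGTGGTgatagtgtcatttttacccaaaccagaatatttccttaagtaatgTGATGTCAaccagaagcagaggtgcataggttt
Gzme (chr14:56120655-56120744, minus strand): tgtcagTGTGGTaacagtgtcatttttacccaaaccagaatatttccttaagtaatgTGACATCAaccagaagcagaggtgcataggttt
Gzmf (chr14:56211457-56211546, minus strand): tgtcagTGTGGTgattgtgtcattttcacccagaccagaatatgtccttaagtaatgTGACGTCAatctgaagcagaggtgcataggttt
Gzmg (chr14:56159624-56159713, minus strand): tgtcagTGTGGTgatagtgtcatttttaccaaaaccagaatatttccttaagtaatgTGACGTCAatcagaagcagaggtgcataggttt
Gzmb (chr14:56262355-56262444, minus strand): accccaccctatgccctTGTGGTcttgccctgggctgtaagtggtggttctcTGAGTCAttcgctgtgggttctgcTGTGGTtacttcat
Gzma (chr13:113101002-113101091, minus strand): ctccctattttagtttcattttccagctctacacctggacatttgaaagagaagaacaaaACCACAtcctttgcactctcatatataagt
Gzmk (chr13:113180986-113181075, minus strand): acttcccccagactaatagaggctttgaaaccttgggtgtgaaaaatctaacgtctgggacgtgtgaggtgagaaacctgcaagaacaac

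All 5 copies held TGTGGT on each strand within the 250 bases before their starts, the nearer match lying 108 to 133 bases before the start, and 51 bases after the beginning of that match came the 8-base block. The block read TGACGTCA in Gzmc, Gzmf and Gzmg. Counted from 1 at the 5′ end of those 8 letters, Gzmd differed by C4T and Gzme by G5A. Gzmb held 2 TGTGGT matches and 1 AP-1 match but no TGACGTCA, and Gzmk held none of the 5 motifs searched. Of the 32851 promoter windows of the same length, 14.0% held TGTGGT on either strand, 6.75% held TGANTCA and 1.55% held TGACGTCA. The T-box letters AGGTGTGA were found in no window of a granzyme or Prf1 (1.12% of all windows), and the STAT letters TTCNNNGAA in 1 window of Gzmm (7.02% of all windows). No matches of different motifs overlapped in these windows, the motifs were chosen with the results known, and a match describes letters and not a binding site. Over the 250 bases the 10 pairs among the copies were 84.4% to 95.6% identical at aligned bases, against 53.9% to 61.4% for Gzmb with each copy.

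The coding sequences grouped otherwise, which bears on how reads could be assigned: Gzmd to Gzmg were alike, and Gzmc was closer to Gzmb than to any of them. Pairs among Gzmd to Gzmg shared 84.7% to 94.8% of aligned coding bases, highest for Gzmd with Gzme, which shared an unbroken run of 96 bases. Gzmc shared 73.3% to 74.2% with those 4 genes and 76.6% with Gzmb, and Gzmb shared 69.3% to 70.9% with the 4, and Gzma shared 62.1% with Gzmk. In the GENCODE M21 transcripts, every 50-base window of Gzma, Gzmk, Gzmm, Gzmb and Prf1 occurred in that gene alone. The share was 95.9% for Gzmc and between 78.1% and 80.6% for Gzmd, Gzme, Gzmf and Gzmg. With 100-base windows it was 93.3% for Gzmf and at least 99.8% for the other members. No source used here gives the read length or how reads matching several genes were handled, so the split among Gzmd to Gzmg is uncertain, and their sum is given below as well.

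Sequencing gave 105728292 counts without acupuncture and 60752043 with it. Levels are CPM, the counts scaled to a library of 1000000 after TMM, a trimmed-mean scaling that lines up the bulk of the genes. Each ratio sets the acupuncture library over the other one and carries a 95% Clopper-Pearson counting interval. A gene counts as higher or lower here if the libraries were at least 2-fold apart and the interval excluded 1. Among the 18687 genes whose 2 counts summed to 20 or more, 9.21% were higher by that rule, 4.90% were lower and 14.1% were either. These shares are the background for every count of a list below, and a count near them singles out no list. The epithelial keratins Krt8 and Krt18, markers of the labelled breast tumour, were abundant, at 1564 and 1432 CPM without acupuncture and 1060 and 988 CPM with it, and 4 of 14 epithelial genes were lower, from a summed 4971 to 3326 CPM. Beside them, 8 of 8 B cell genes, 7 of 7 lymph node genes, 7 of 8 fat genes and 8 of 8 skeletal muscle genes were higher with acupuncture, and 7 of 8 neutrophil genes were lower. Summed over each list, the levels were 2.80 and 123 CPM for B cells, 1.59 and 187 CPM for lymph node, 492 and 1846 CPM for fat, 173 and 2027 CPM for muscle and 214 and 20.6 CPM for neutrophils. The part of these cells and tissues in the granzyme values was not tested.

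All 10 genes passed the count minimum. Of them 2 were higher (Gzma and Gzmk), 5 were lower (Gzmc, Gzmd, Gzme, Gzmf and Gzmg) and 3 lay between (Gzmb, Gzmm and Prf1), beside the 9.21% higher, 4.90% lower and 14.1% in either direction among all tested genes. Their median log2 ratio, with a prior count of 2, was -0.41, against 0.0003 over all genes tested. The 10 genes and their grouping were chosen by these same ratios, so nothing is read from the counts set beside that background, and the values describe the 2 libraries without a test.

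**Figure D1:**
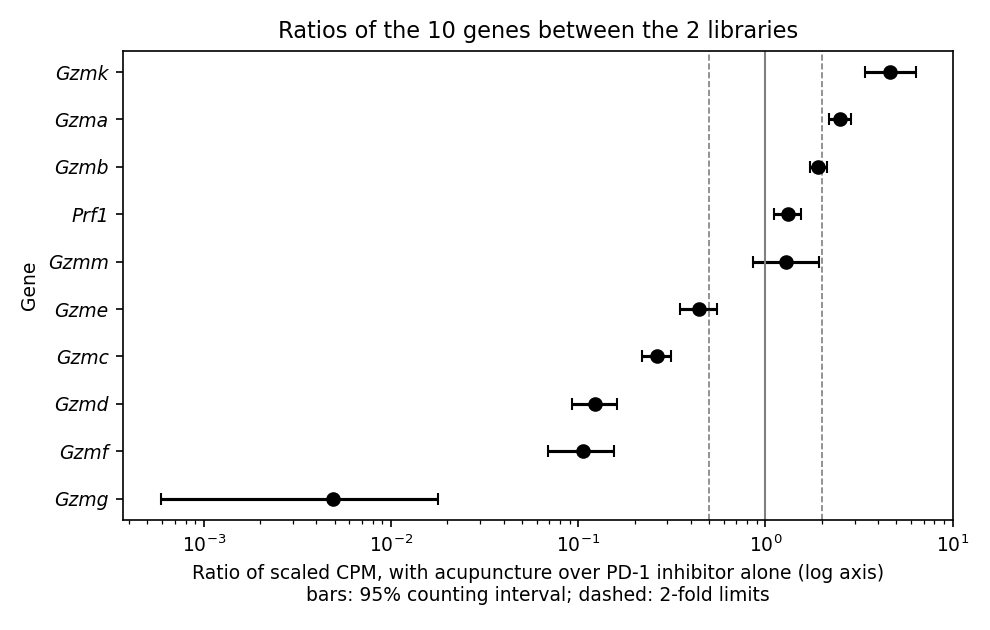
Ratio of scaled CPM (with over without acupuncture, log axis) of the 10 genes, with bars for the 95% counting interval and dashed lines at the 2-fold limits. Gzmk and Gzma lie above the upper limit, Gzmb, Prf1 and Gzmm between the limits, and the 5 copies Gzmc to Gzmg below the lower limit, Gzmg farthest.

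Gzma and Gzmk were the granzymes that were higher. Gzma, the tryptase of cytotoxic granules, had 349 counts (3.42 CPM) without acupuncture and 538 counts (8.55 CPM) with acupuncture, 2.50-fold higher (2.18 to 2.87). Gzmk, a granzyme of memory-type CD8 T cells, had 57 counts (0.558 CPM) and 162 counts (2.57 CPM), 4.61-fold higher (3.39 to 6.35). The intervals of these 2 ratios did not overlap, so Gzmk stood further apart between the libraries than Gzma beyond counting error. Summed, the pair went from 3.98 to 11.1 CPM, 2.80-fold (2.47 to 3.17). Among all genes tested, Gzma lay at percentile 93.7 of the log2 ratios and Gzmk at 97.3.

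Gzmb stood just short of the 2-fold limit. It had 688 counts (6.74 CPM) without acupuncture and 812 counts (12.9 CPM) with acupuncture, a ratio of 1.91 (1.73 to 2.12), at percentile 90.2 of the tested genes. Its interval reaches past 2-fold, and scaling by total counts put it on the other side of the limit. Prf1, which makes the pore that granzymes depend on, had 321 counts (3.14 CPM) and 261 counts (4.15 CPM), a smaller ratio of 1.32 (1.12 to 1.56). For every 100 counts of Prf1 there were 214 counts of Gzmb without acupuncture and 311 with it, a ratio of 1.45 (1.20 to 1.76). Gzmm had 58 counts (0.568 CPM) and 46 counts (0.731 CPM), and its ratio of 1.29 (0.854 to 1.93) was not distinguishable from 1 at this depth.

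The 5 copies Gzmc to Gzmg were all lower, and except for Gzmd and Gzmf the sizes of the differences were themselves apart by more than counting error. Counting error leaves out reads assigned to the wrong copy, so the values of the single copies, Gzmg included, depend on how shared reads were split. Gzmg went from 663 counts (6.49 CPM) to 2 counts (0.0318 CPM), 204-fold lower (56.3 to 1691). With a prior count of 2 its log2 ratio of -6.86 was the lowest of all 18687 genes tested, and it was also the lowest of the 15237 genes whose counts summed to 100 or more. Gzmf went from 415 counts (4.07 CPM) to 27 (0.429 CPM), 9.47-fold lower (6.42 to 14.5), and Gzmd from 763 counts (7.47 CPM) to 58 (0.922 CPM), 8.11-fold lower (6.20 to 10.8). Those 2 ratios overlapped in their intervals and could not be ordered. Gzmc went from 876 counts (8.58 CPM) to 142 (2.26 CPM), 3.80-fold lower (3.18 to 4.57). Gzme, the copy that differed least, went from 360 counts (3.53 CPM) to 98 (1.56 CPM), 2.26-fold lower (1.81 to 2.86). It no longer passed the 2-fold rule when the libraries were scaled to the epithelial genes.

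The 2 copies most alike in sequence were not alike in ratio as counted. Gzmd and Gzme, the most alike of them in coding sequence and promoter, were 8.11-fold and 2.26-fold lower, with intervals that did not overlap. Those intervals do not cover reads assigned to the wrong copy, so this difference depends on the uncertain split. Whether likeness in sequence and in ratio go together over all pairs was not tested. The TGACGTCA letters were held by Gzmc, Gzmf and Gzmg, which were 3.80-fold, 9.47-fold and 204-fold lower, and were changed by 1 base in Gzmd and Gzme. Summed over Gzmd to Gzmg, the level went from 21.6 to 2.94 CPM, 7.33-fold lower (6.31 to 8.57). The sum leaves aside how reads were split among these genes. It does not cover shared reads that were dropped, or given to Gzmc, Gzmn or the gene Gm4022, which share 50-base windows with some of them. With Gzmc added the level went from 30.1 to 5.20 CPM, 5.80-fold lower (5.17 to 6.52). Within these 5 copies, Gzmg made up 21.5% of the counts without acupuncture (20.1% to 23.0%) and 0.612% with acupuncture (0.0742% to 2.19%), whereas Gzme made up 11.7% (10.6% to 12.9%) and 30.0% (25.1% to 35.3%) and Gzmc 28.5% (26.9% to 30.1%) and 43.4% (38.0% to 49.0%).

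**Figure D2:**
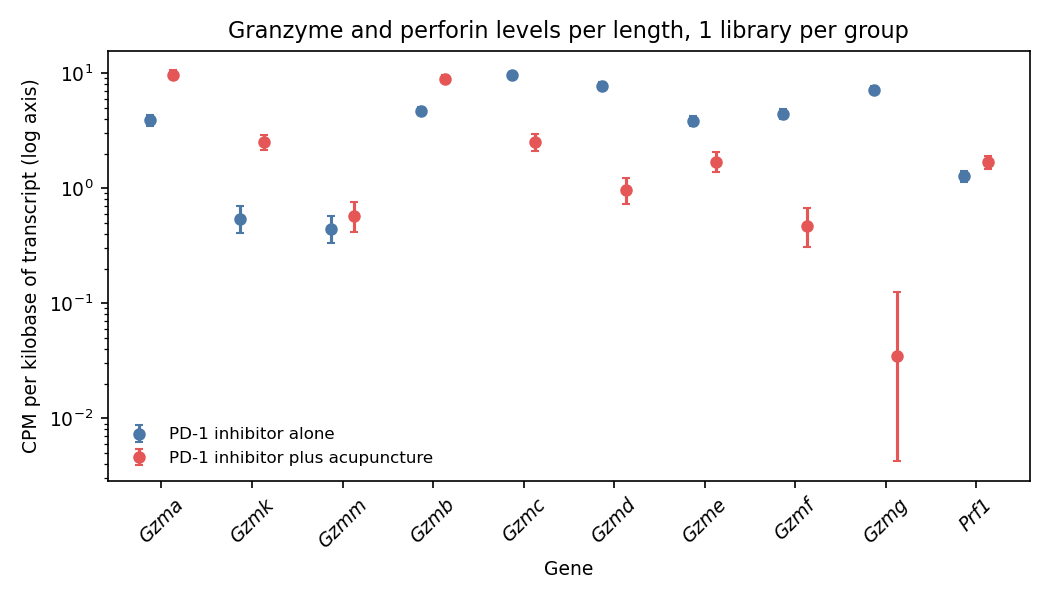
Level of each member in CPM per kilobase of transcript (log axis) in each of the 2 libraries, with 95% Poisson intervals of the counts. The copies Gzmc, Gzmd and Gzmg are the highest points without acupuncture, Gzma and Gzmb the highest with acupuncture, and Gzmg with acupuncture is the lowest point of all.

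Per kilobase of transcript, the order of the granzymes was not the same in the 2 libraries. Without acupuncture Gzmc was highest at 9.60 CPM per kilobase, above Gzmd at 7.75 and Gzmg at 7.14, which did not differ from each other beyond counting error. Below them, Gzmb (4.69), Gzmf (4.42), Gzma (3.89) and Gzme (3.85) formed a run in which no neighbour differed beyond that error. Prf1 followed at 1.27, then Gzmk at 0.543 and Gzmm at 0.441, the last pair again not distinguishable. With acupuncture Gzma (9.74) and Gzmb (8.99) led without a difference between them, and Gzmb was 3.56-fold above the next gene, Gzmc, at 2.52 (2.98 to 4.29). Gzmk, at 2.50, was level with Gzmc within counting error, and Gzme (1.70) with Prf1 (1.68). Gzmd (0.956), Gzmm (0.568), Gzmf (0.467) and Gzmg (0.0350) came last. Lengths were those of the GENCODE M21 transcripts, so the levels depend on how far those ends match the ones in the tumour. They also depend on how reads matching several genes were handled, which is not known. Of the 50-base windows, 78.1% to 80.6% were unique for Gzmd to Gzmg and 95.9% for Gzmc, against 100% for the other members. The levels were not corrected for this, so the places of the copies, among themselves and beside the other genes, are uncertain beyond counting error.

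**Figure D3:**
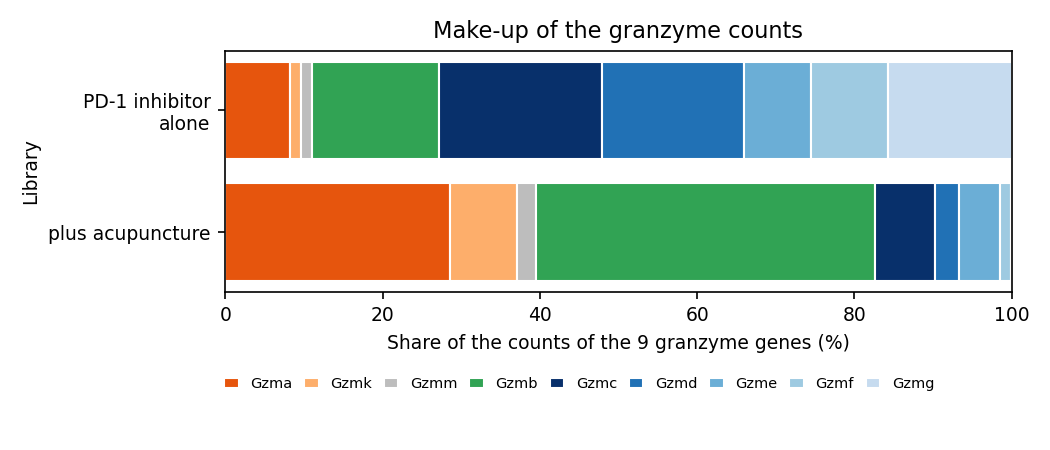
Share (%) of the counts of the 9 granzyme genes taken by each gene in each of the 2 libraries. The blue copies Gzmc to Gzmg fill 72.8% of the upper bar and 17.3% of the lower one, where Gzmb (green) holds 43.1% and Gzma with Gzmk (orange) 37.1%.

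The make-up of the granzyme counts differed between the libraries. The 9 genes held 4229 counts without acupuncture and 1885 with it, and their sum was 1.38-fold lower (1.31 to 1.46). The copies Gzmc to Gzmg took 72.8% of these counts without acupuncture (71.4% to 74.1%) and 17.3% with acupuncture (15.7% to 19.1%). Gzmb took 16.3% (15.2% to 17.4%) and 43.1% (40.8% to 45.3%), and Gzma with Gzmk took 9.60% (8.73% to 10.5%) and 37.1% (34.9% to 39.4%). Under TMM scaling the sum over all granzymes thus had a ratio below 1, while Gzma, Gzmk and Gzmb each had a ratio above 1. The log2 ratio of the sum was -0.47. Centring the epithelial genes on 0 moved the median of all tested genes up by 0.54, so the side of 1 on which the sum lay depends on the scaling. These shares rest on counts and not on molecules per length, so they compare the libraries and not the genes.

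**Figure D4:**
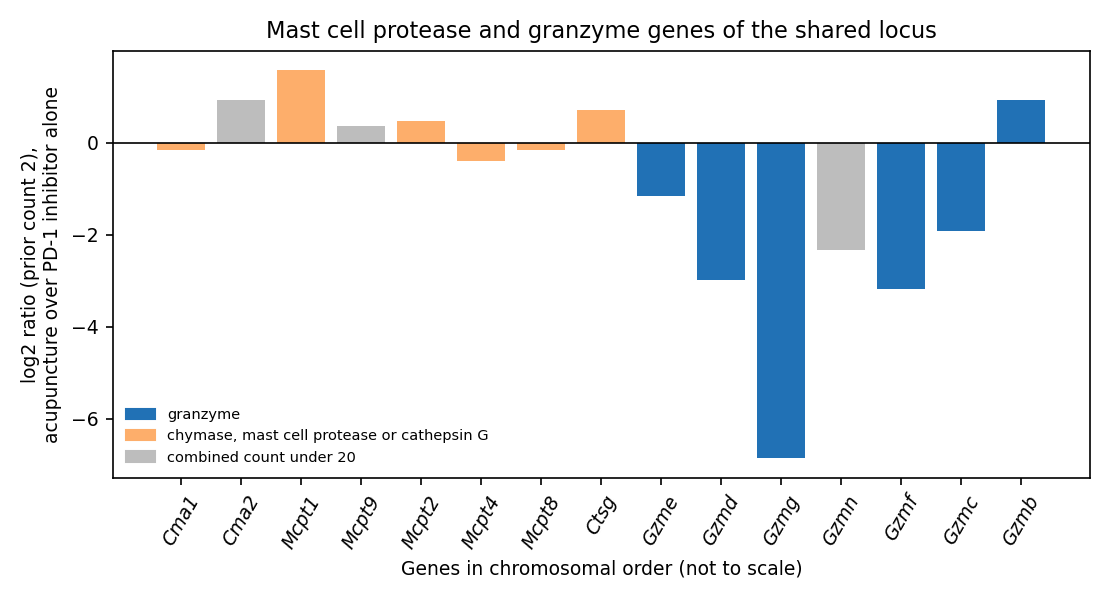
Log2 ratio (prior count 2, with over without acupuncture) of the genes from the chymase Cma1 to Gzmb in their order along the chromosome, not to scale, with granzymes in blue, other proteases in orange and genes with a combined count under 20 in grey. The granzymes from Gzme to Gzmc lie below 0, and Gzmb at the end of the row lies above it. Of the other proteases Mcpt1, Mcpt2 and Ctsg also lie above 0, with Cma2 and Mcpt9 at few counts, and Cma1, Mcpt4 and Mcpt8 below it.

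Neither neighbour of the copies was lower. On 1 side Gzmb, the neighbour of Gzmc, had its ratio of 1.91. On the other side, cathepsin G, Ctsg, a protease of neutrophils, had 16 and 17 counts, a ratio of 1.72 (0.819 to 3.65) that counting error does not separate from 1. Gzmn, which lies between Gzmg and Gzmf and is no member of the list, had 10 counts without acupuncture and 0 with it, under the count minimum. Of the 6 neighbouring proteases with enough counts, 1 was higher and 0 were lower. The higher one was Mcpt1, a chymase of mucosal mast cells, with 500 counts (4.90 CPM) and 920 counts (14.6 CPM), 2.99-fold higher (2.67 to 3.34). The chymases of connective tissue mast cells, Cma1 and Mcpt4, stood at 0.889 (0.825 to 0.957) and 0.756 (0.699 to 0.817) times the levels seen without acupuncture.

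Of the cells that make granzymes, T cells had all of their listed genes higher with acupuncture and NK cells part of them. All 12 T cell genes were higher (median log2 ratio 2.53), from a summed 32.0 to 172 CPM, among them the kinase Lck at 4.93-fold (4.55 to 5.34) and the signalling adaptor Lat at 7.04-fold (6.24 to 7.96). Cd8a and Cd8b1, the chains of the cytotoxic co-receptor, were 7.38-fold (6.24 to 8.77) and 15.0-fold (12.1 to 18.8) higher. Of 9 NK cell genes with enough counts, 5 were higher and 0 were lower (median 1.03), and their summed level was 76.5 and 70.6 CPM. Most of that sum was Tyrobp, an adaptor that myeloid cells also carry, at 67.1 and 49.3 CPM. The activating receptor Klrk1, which CD8 T cells also have, was 2.83-fold higher (2.46 to 3.25), and Klra4 and Klra8 had no counts in either library. The NK cell receptors Ncr1 and Klrb1c, chosen after their values were seen, had 103 and 102 counts (1.01 and 1.62 CPM) and 105 and 91 counts (1.03 and 1.45 CPM). Of 9 genes of tissue-resident lymphocytes, cells that are known for granzyme C, 2 were higher and 1 was lower (median 0.64), with Cd69 5.86-fold higher (4.79 to 7.21) and Rgs1 2.09-fold lower (1.90 to 2.29).

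Set against those cells, the direction of the granzymes depended on the marker taken. For every 100 counts of the CD3 chain genes Cd3d, Cd3e and Cd3g there were 58.2 summed counts of Gzma and Gzmk without acupuncture, and the number with it was 2.33-fold lower (2.01 to 2.70, an approximate 95% interval from Poisson errors). Against the same genes Gzmb went from 98.7 to 29.0 counts, 3.40-fold fewer (2.98 to 3.88), and Prf1 from 46.1 to 9.33, 4.94-fold fewer (4.11 to 5.93). Per counts of Cd8a and Cd8b1 the drops were larger. There Gzma with Gzmk was 3.62-fold fewer (3.03 to 4.33), Gzmb 5.29-fold (4.49 to 6.24) and Prf1 7.68-fold (6.23 to 9.46). For every 100 counts of Ncr1 and Klrb1c, receptors of NK cells, Gzma with Gzmk instead went from 195 to 363 counts, a ratio of 1.86 (1.48 to 2.34), and Gzmb from 331 to 421, a ratio of 1.27 (1.02 to 1.59). Prf1, at 154 and 135 counts on that base, gave a ratio of 0.876 (0.679 to 1.13), within counting error of 1. These values rest on the 2 receptors taken, since Klrk1, Klrc1, Klrd1, Klre1 and Txk of the same list, named after their values were seen, had ratios of 2.25 to 3.56 and Klrg1 one of 0.735. With all NK cell genes except Tyrobp as the base, chosen after the values were seen, Gzma with Gzmk stood at 42.4 and 52.2 counts, a ratio of 1.23 (1.06 to 1.43). Gzmb then stood at 71.9 and 60.6 counts, a ratio of 0.842 (0.739 to 0.960), and Prf1 at 33.5 and 19.5, a ratio of 0.580 (0.483 to 0.697), so Gzmb lay on the other side of 1 from its value on the 2 receptors. Of the 957 and 1341 counts of that base, 317 and 552 were of Klrk1, which CD8 T cells also have. For every 100 counts of Ptprc, the phosphatase CD45 of all leukocytes, Gzmb stood at 9.30 and 10.3 counts, a ratio of 1.10 (0.991 to 1.23). On that base Gzma with Gzmk had a ratio of 1.61 (1.42 to 1.83) and Prf1 one of 0.759 (0.643 to 0.897), on opposite sides of 1. The copies Gzmc to Gzmg were lower on each of these bases, 37.8-fold (32.8 to 43.5) on the CD3 genes and 58.7-fold (49.4 to 69.8) on Cd8a and Cd8b1. They were 8.73-fold (6.96 to 11.0) lower on the 2 NK receptors, 13.2-fold (11.5 to 15.2) on the NK list without Tyrobp and 10.1-fold (8.95 to 11.3) on Ptprc. Which cells carried the granzymes cannot be read from bulk tissue, and none of these values is an amount per cell. The lymph node genes went from a summed 1.59 to 187 CPM. How far such tissue added to the CD3 and CD8 counts was not tested.

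**Figure D5:**
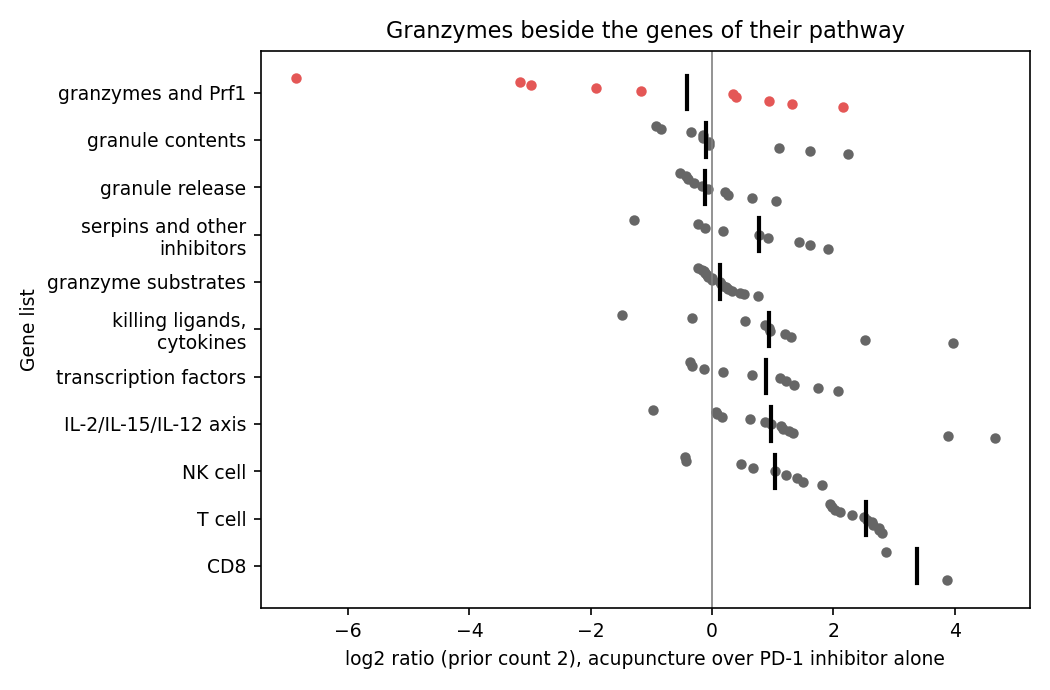
Log2 ratio (prior count 2, with over without acupuncture) of the granzymes with Prf1 (red) and of the tested genes of 10 other lists (grey), each point a gene and each black bar the median of its list. The granzymes spread from -6.86 to 2.16, while the substrates stay near 0 and the T cell and CD8 genes lie well above it.

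Among the other contents of cytotoxic granules, 3 of 10 genes were higher and 0 were lower (median log2 ratio -0.10). The higher ones were Nkg7, a granule membrane protein that T and NK cells use for degranulation, at 2.28 and 10.8 CPM (4.75-fold, 4.09 to 5.53), the cathepsin Ctsw at 2.82 and 8.69 CPM (3.08-fold, 2.67 to 3.57) and Cst7, an inhibitor of the granzyme-activating cathepsin C, at 1.64 and 3.53 CPM. The lysosomal protease Ctsl stood at 0.558 times and Calr, a calcium-binding protein, at 0.905 times the level without acupuncture. Srgn, the proteoglycan that holds granzymes in the granule, was at 170 and 90.1 CPM and Ctsc, the cathepsin C that activates them, at 337 and 326 CPM. Of 10 genes of granule release 1 was higher, the Rab27 effector Sytl2 at 2.09-fold (1.72 to 2.54), and 0 were lower (median -0.12). That is near the 9.21% higher among all tested genes. Stxbp2, a syntaxin-binding protein needed for degranulation, was at 149 and 103 CPM. Cst7, Srgn and Ctsc were chosen after their values were seen.

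A list of serpins and other protease inhibitors went both ways, and the substrates stayed within the limits. Only some of its members are known to act on granzymes, and Serping1, for one, is a complement inhibitor. Of its 9 genes with enough counts, 3 were higher and 1 was lower (median 0.77). Serpina3g, a serpin known to inhibit cathepsins, and its relative Serpina3f were 3.06-fold (2.94 to 3.18) and 3.79-fold (3.31 to 4.35) higher, and Serpinb1a, chosen after its values were seen, was 2.70-fold higher (2.54 to 2.88). Serpinb9, the inhibitor of granzyme B, was at 35.9 and 61.2 CPM, a ratio of 1.70 and so between the limits, while its paralogue Serpinb9b was at 2.40 and 0.970 CPM and was the lower one, both chosen after their values were seen. Of 17 substrate and death-pathway genes, 0 were higher and 0 were lower (median 0.12). Dffb, the nuclease that cuts DNA in apoptosis, had 929 and 821 counts, a ratio of 1.43 (1.30 to 1.58). Set, part of a complex that granzyme A attacks, was at 522 and 592 CPM.

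Of 10 further killing ligands and cytokines, 4 were higher and 1 was lower (median 0.94). Tnfsf10, the death ligand TRAIL, was at 12.8 and 31.7 CPM, 2.47-fold higher (2.30 to 2.65). Ifng, the cytokine of activated T and NK cells, had 15 and 167 counts, and the chemokine Xcl1 had 13 and 53 counts, 6.61-fold higher (3.56 to 13.2). The fourth was Lta, at 61 and 88 counts, and the 1 that was lower was the chemokine Ccl3, at 634 and 138 counts, both named after their values were seen. Ltb was at 10.2 and 19.6 CPM, between the limits like Gzmb.

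Transcription factors of effector lymphocytes were higher in 5 of 10 cases and lower in 0 (median 0.89). Irf4, induced by antigen receptor signals and abundant in B lineage cells, was at 2.58 and 10.9 CPM, 4.23-fold higher (3.66 to 4.89). Tcf7, the factor of naive and memory-like T cells, was 3.36-fold higher (3.12 to 3.62). The others were the T-box factors Eomes, at 2.74 and 6.44 CPM, and Tbx21, at 0.519 and 1.37 CPM, and Stat4, at 3.93 and 8.52 CPM, named after their values were seen. Runx3, whose family binds the TGTGGT letters shown above, was at 18.5 and 14.4 CPM, and Prdm1, which drives terminal effector states, at 10.8 and 9.84 CPM, both also chosen after their values were seen. Of 13 genes of the interleukin 2, 15 and 12 pathways with enough counts, 6 were higher and 0 lower (median 0.97). The higher ones included Il2rb, the receptor chain shared by interleukins 2 and 15, at 10.1 and 22.3 CPM (2.20-fold, 2.03 to 2.38), named after its values were seen. Il21, a helper T cell cytokine, had 0 and 21 counts, and Jak3, the kinase of these receptors, was at 186 and 94.9 CPM. Il2, chosen after its values were seen, had 3 counts in each library.

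Markers of other cells in which granzymes are known, and of neutrophils, are given beside the granzymes. Of 10 placental genes, listed because Gzmc to Gzmg are known from the pregnant uterus, 6 had 0 counts in both libraries, and the 2 with enough counts, Prl2c2 and Pappa2, were at 1.25 and 1.84 CPM and at 0.666 and 0.699 CPM. Of 9 mast cell and basophil genes with enough counts, 1 was lower and 0 were higher (median -0.21). The lower one was Hdc, which makes histamine, 2.06-fold lower (1.89 to 2.24), and the summed level of the list was 117 and 88.9 CPM. Of 7 genes of plasmacytoid dendritic cells, which can make granzyme B, 3 were higher and 0 lower (median 0.64), with Siglech at 0.833 and 2.64 CPM. The list was not uniform. Bst2 had a ratio of 1.23 (1.20 to 1.25), and Tcf4 stood below 1 at 0.776 (0.757 to 0.795). Runx2, named after its values were seen, was also below 1, at 0.846 (0.808 to 0.886). Of 8 neutrophil genes 7 were lower (median -2.95), from a summed 214 to 20.6 CPM, with S100a9 35.2-fold lower (30.6 to 40.7).

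With 1 library per group, likeness of pattern means no more than a similar ratio. Among the genes of the other lists whose counts summed to 100 or more, the nearest to Gzmb (log2 ratio 0.93) were Ltb at 0.93 and the complement inhibitor Serping1 at 0.93. Nearest to Gzma (1.32) were Tnfsf10 at 1.30 and Il12b at 1.34. Gzmk (2.16) lay nearest to the fat gene Plin1 at 2.18 and the vessel adhesion gene Madcam1 at 2.12. Gzmd (-2.99) and Gzmf (-3.17) lay nearest to the neutrophil genes Retnlg at -3.33 and Mmp8 at -3.34. Gzmc (-1.92) lay nearest to the neutrophil receptor Cxcr2 at -1.78 and the keratin Krt19 at -1.71, and Gzme (-1.17) to the junction gene Cldn4 at -1.16 and to Rgs1 at -1.06. Prf1 (0.40) lay nearest to the leukocyte gene Coro1a at 0.41 and Gzmm (0.35) to the integrin Itgae at 0.34. Gzmg (-6.86) had no near gene, the closest being S100a9 at -5.13.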

How the data were processed

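The values used are the authors' raw counts of reads by gene symbol, deposited in 1 column per library as whole numbers. Per the labels' protocols, RNA came from a column kit and libraries from a SMARTer kit, and the submitters' processing notes name GRCm39 and mm39. The aligner, the counting program and their versions were not given in the sources used here, nor was the use of strand. Library sizes were scaled by TMM factors of 0.966 and 1.04 (edgeR 4.0.16 in R 4.3.3, on genes whose 2 counts summed to 20 or more). DESeq2 1.42.0 size factors, total counts, upper quartile, other limits and prior counts (0.5 and 5) were alternatives. Intervals were computed with scipy 1.17.1 in Python 3.11.15, and cover counting error only, since each group has 1 library. PCR reads that carry no molecular identifier are not separate molecules, so the intervals can be too narrow even for that error. The members, gene lists and rules were chosen with earlier results of these data known. All members were named, with up to 4 genes of each list (the 2 of highest summed CPM and the 2 of largest log2 ratio in size) and the nearest genes by ratio. Promoters were matched by symbol for 10 of 10 members, and sequences were aligned with Biopython 1.88. The listing rule was tested on simulated counts. 1 gene that the rule names is not reported here.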

Additional observations from a re-analysis of the deposited data

How the results depend on the processing

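Gzma, Gzmk and the copies Gzmc to Gzmg kept their direction under every scaling tried (total counts, totals without abundant genes, DESeq2 size factors, upper quartile and epithelial genes) and with the deeper library thinned, as did Gzmb and Prf1. The ratio of Gzmm also stayed above 1, but its interval under TMM (0.854 to 1.93) included 1, so no direction is read from it. Scaling by total counts, or by totals without the 10 most abundant genes, moved the median of all genes by 0.10 on the log2 scale and listed 3 members as higher, Gzmb joining at a log2 ratio of 1.04. When the epithelial genes were instead centred on a log2 ratio of 0, a shift of 0.54, 3 were higher and 4 lower, Gzme no longer listed, and log2 ratios were 2.03 for Gzma plus Gzmk, 1.49 for Gzmb, 0.95 for Prf1 and -1.99 for Gzmc to Gzmg. The cause of that shift was not tested. It is larger than the size of the log2 ratio of the summed granzymes (-0.47 under TMM), so the direction of that sum depends on the scaling. A 4-fold limit left 1 higher (Gzmk) and 3 lower (Gzmd, Gzmf and Gzmg). Counting Gzmd to Gzmg as 1 gene gave 2 lower by construction. Medians of members in place of summed counts, with prior counts of 0.5, 2 and 5, were 1.76, 1.74 and 1.70 for Gzma and Gzmk (1.48 from the sum) and -3.01, -2.99 and -2.94 for Gzmc to Gzmg (-2.54 from the sum). No paired analysis was possible because each group has 1 library. The 2 counts of Gzmg with acupuncture limit how large its ratio can be said to be.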
